A study of Drosophila melanogaster with 48 samples.

Results

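The innate immune genes described here are 10 genes of Drosophila melanogaster. They belong to the Toll, Imd and Sting pathways, except Tep2, which encodes a secreted thioester protein. Their RNA was measured in brains of a fly model of mucopolysaccharidosis IIIB. They were chosen by symbol and comprise PGRP-SA, PGRP-LC, PGRP-LB, pirk, Dredd, Rel, Dif, dl, Sting and Tep2. All 10 were found among the 17490 gene identifiers counted, and all 10 were among the 15807 that passed the filter on low counts. Mucopolysaccharidosis IIIB is the lysosomal storage disease caused by loss of the enzyme NAGLU, which takes part in the breakdown of heparan sulfate, and the study asked how mutation, sex and age affect gene expression. The genotypes were NAGLU KO, W422X, Y160C and WG2, and WG2, labelled with no change of NAGLU, was taken as control. Each genotype was sampled in males and females at week 3 and week 0, with 3 libraries of 20 pooled brains in each of the 16 groups and 48 libraries in all. The extent of the deletion in KO, the descent of the mutants from WG2 and the crosses behind the replicates are not given in the sources used here. Each allele was sampled as a single named genotype, so the allele and the line that carries it cannot be told apart, and p-values measure only the spread between samples of pooled brains.

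Flies have no antibodies and rely on germ line encoded receptors. In the Toll pathway, circulating recognition proteins start a protease cascade that ends in the nuclear entry of the NF-kappaB factors Dif and Dorsal. In the Imd pathway, peptidoglycan receptors signal through the caspase Dredd to the NF-kappaB factor Relish. Sting is a sensor of cyclic dinucleotides that acts upstream of Relish in antiviral defence, and outside infection the Imd pathway has been studied in fly brains for its activity in ageing and neurodegeneration.

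PGRP-SA, the circulating receptor that detects peptidoglycan for Toll, lies on chromosome X at 11561643 to 11562779 of the BDGP6.54 assembly. PGRP-LC, the main membrane receptor of Imd, lies on 3L at 9338810 to 9348336. PGRP-LB, an amidase that degrades peptidoglycan and so dampens Imd, lies on 3R at 11452849 to 11460552, and its span of 7704 bases is held within CG17230 on the opposite strand. The second negative regulator, pirk, whose protein removes PGRP-LC from the cell surface, lies on 2R at 21660967 to 21662995. Dredd, the caspase that cleaves Relish, lies on X at 633622 to 635545 and shares 12 bases with Mybbp1A on the opposite strand.

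Rel, the gene of Relish, lies on 3R at 9044183 to 9047977, inside the span of Nmdmc on the same strand. Dif (17413248 to 17433161) and dl, the gene of Dorsal (17436830 to 17450364), are neighbours on 2L. Sting lies on 2R at 9842686 to 9845512 and shares 55 bases with Orc6. Tep2, which encodes a secreted thioester protein of the complement-like family, lies on 2L at 7693727 to 7701601. All are annotated as protein coding, and values refer to whole genes. The shared stretches are those of whole gene spans, introns included, so they do not show that counted exons are shared. No source used here gives the strand setting of the counting. Reads from any shared exons therefore cannot be assigned. For Rel and Nmdmc, on the same strand, the strand setting would not separate such reads. CG17230, which holds PGRP-LB, averaged 51.9 CPM (counts scaled to the size of each library), and Nmdmc averaged 7.66 CPM.

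Total counts ran from 8690199 to 55801160 per library, with a median of 19159445.5. Naglu RNA followed the genotype labels, at 2.10 ± 0.79 CPM in KO, 6.66 ± 1.51 in W422X, 21.2 ± 2.63 in Y160C and 24.7 ± 3.40 CPM in WG2 (SD, n = 12 each). The neuronal marker elav had 524 to 932 CPM and the glial marker repo 120 to 231 CPM over all libraries. In 9 libraries, all at week 3, the 4293 genes with a median under 0.5 CPM held 0.349% to 1.75% of the counts, against 0.0448% to 0.312% in the other 39. These 9 are called high-background libraries below. They comprised 4 of KO (female replicates 1 and 3, male replicates 2 and 3), 1 of W422X (female replicate 1), 3 of Y160C (female replicates 1 and 2, male replicate 3) and 1 of WG2 (female replicate 2). The KO female replicates 1 and 3 of week 3 also stood apart from the rest in RNA of 1 haemocyte gene, Hml, as given with Sting below. Results that rest on these libraries are given with and without them.

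All 10 genes were detected in every library, and per length of transcript they ranged over more than an order of magnitude. Dif had a median of 11.2 CPM per kilobase over the 48 libraries and Rel 10.7, so that these NF-kappaB factors stood highest. Tep2 followed at 6.78, Dredd at 5.66, dl at 4.42 and PGRP-LB at 3.999 CPM per kilobase. The lower members were Sting (2.15), PGRP-LC (2.11), pirk (1.05) and PGRP-SA (0.687 CPM per kilobase). Neighbours in this order overlapped in their range over libraries, as with Dif (7.94 to 13) and Rel (8.21 to 22.5), or Sting (0.888 to 20.2) and PGRP-LC (1.44 to 4.05 CPM per kilobase). In pooled tissue, a gene expressed in fewer cells and one with less RNA per cell cannot be told apart.

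**Figure D1:**
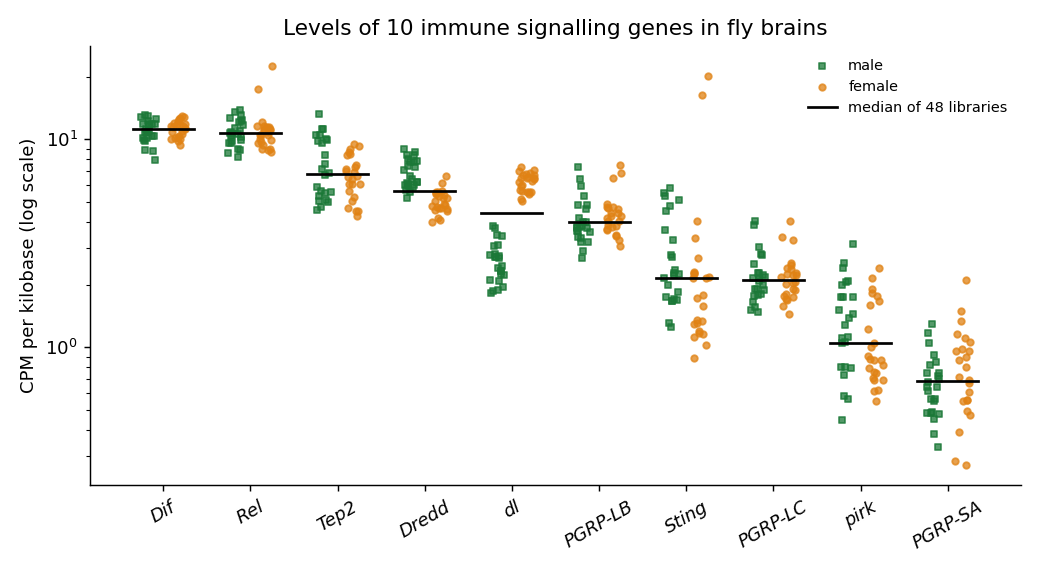
Level of each gene in CPM per kilobase of gene model on a log axis, with 1 point per library (squares male, circles female) and a bar at the median of 48 libraries. Dif and Rel are highest at medians of 11.2 and 10.7, PGRP-SA lowest at 0.687, and the male and female points separate for dl.

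The plot of levels per kilobase shows dl as the gene whose points fall into separate clouds by sex, and Sting as the gene with the longest tail, up to 20.2 CPM per kilobase. The plot of normalised counts by group shows that tail to be 2 KO female libraries at week 3. It also shows that several of the highest points of PGRP-SA, PGRP-LC, PGRP-LB and pirk are high-background libraries.

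**Figure D2:**
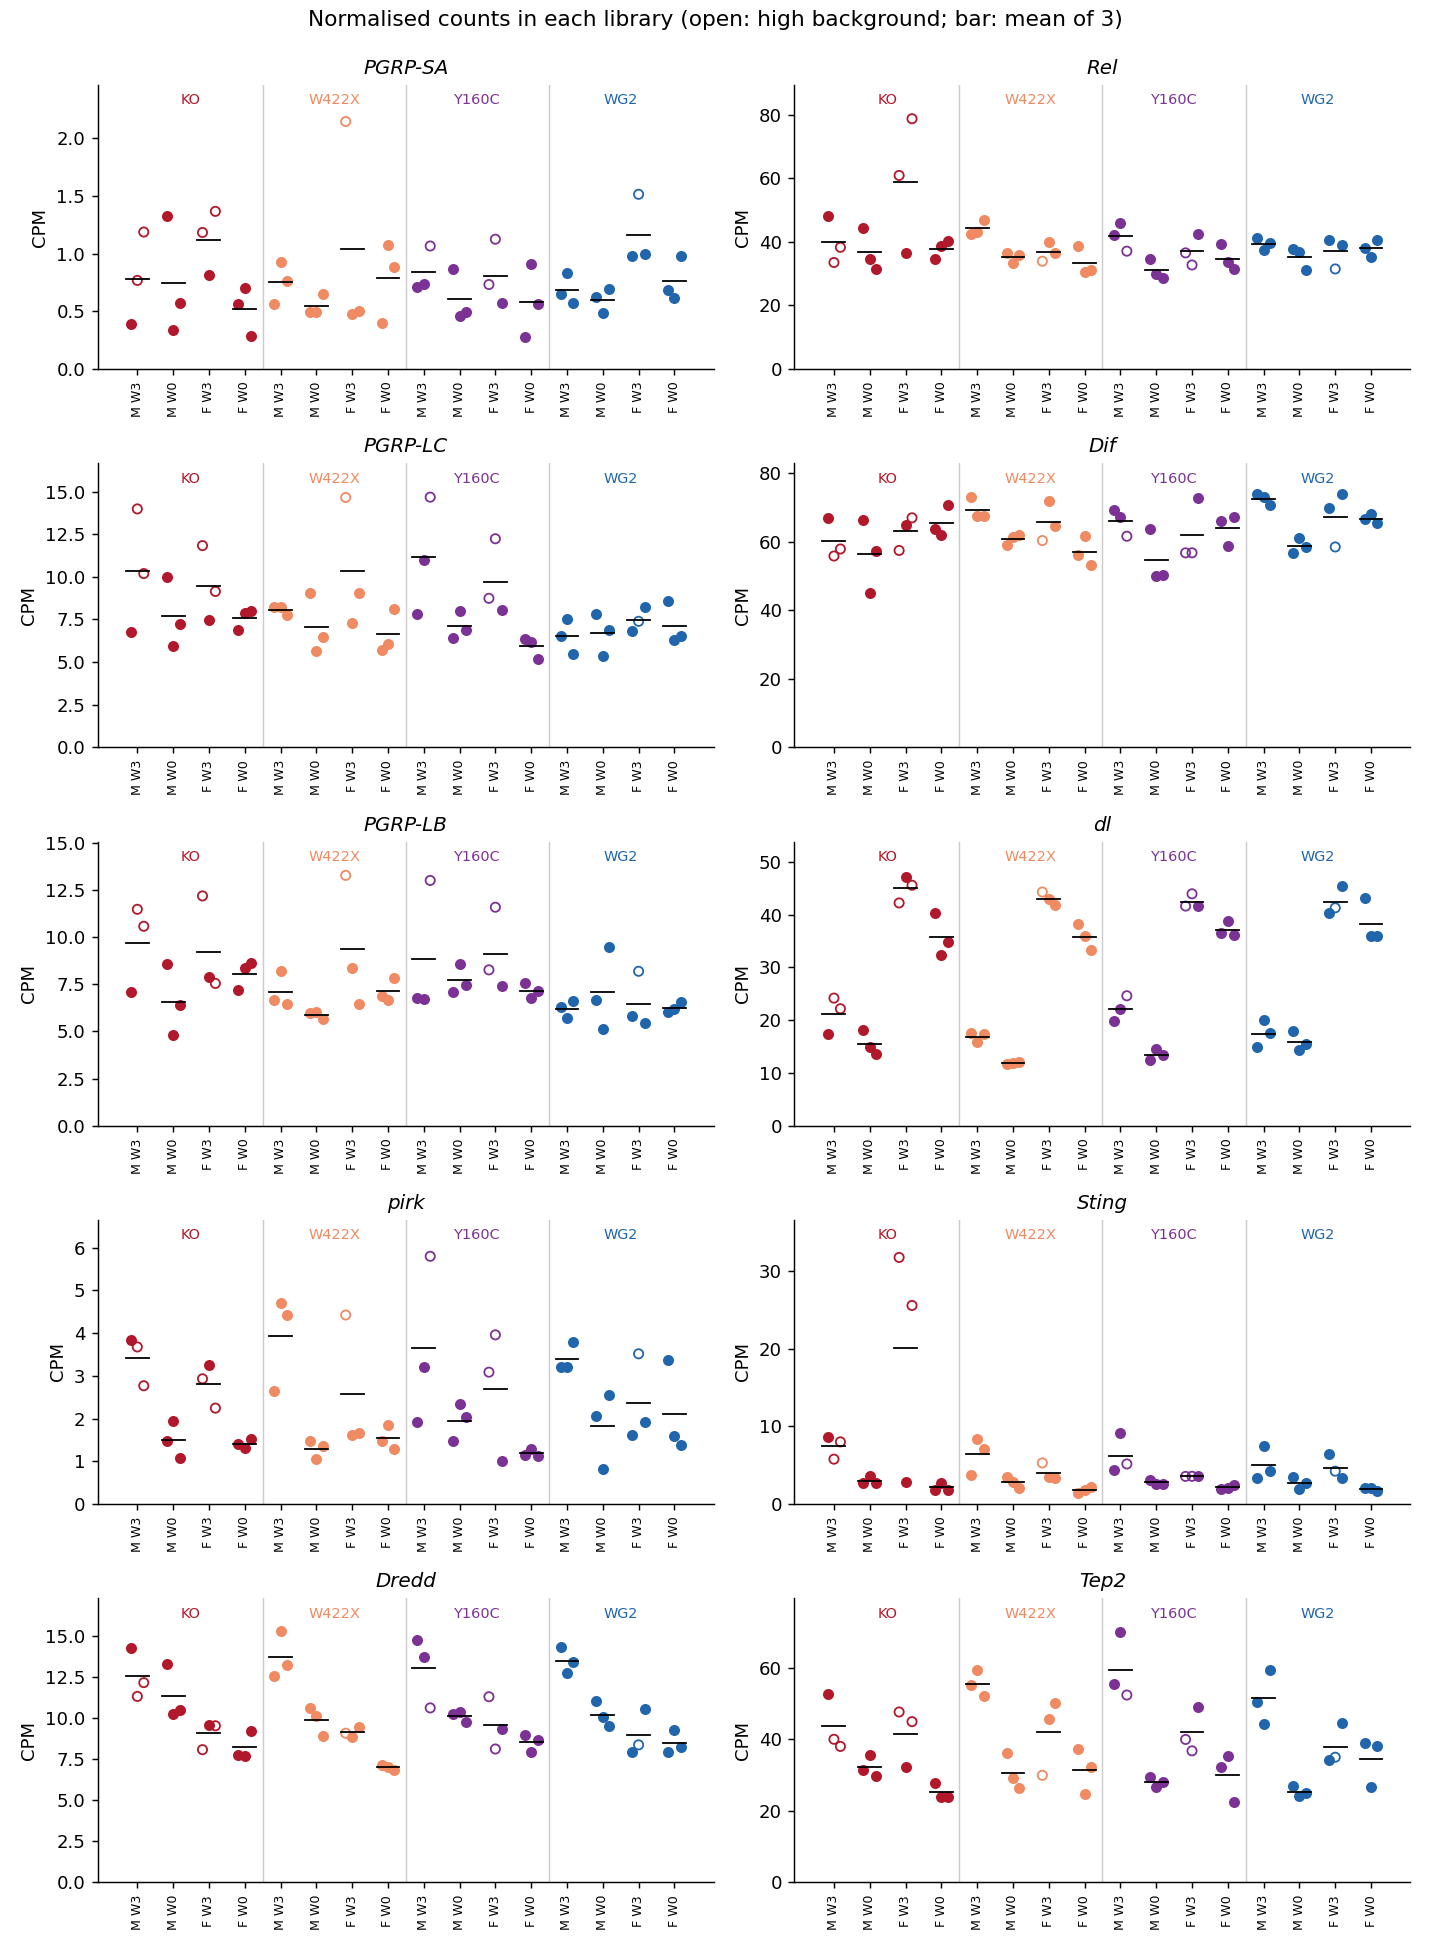
Normalised counts (CPM, linear axis from 0) of the 10 genes in each of the 48 libraries, by genotype, sex (M, F) and week (W3, W0), with a bar at the mean of 3 libraries and open symbols for the 9 high-background libraries. Sting reaches 31.8 and 25.6 CPM in KO females at week 3, and dl is lower in males than in females in every genotype.

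The comparison of each mutant with WG2 asked whether Naglu mutation altered these immune genes. Over both sexes and ages no member was called at an adjusted p under 0.05 in any mutant: 0 of 10 in KO (0.747% of all 15807 genes were called), 0 of 10 in W422X (0.373% of all genes) and 0 of 10 in Y160C (0.31% of all genes). Without adjustment, 4 members in KO, 1 in W422X and 1 in Y160C had a p under 0.05, and by DESeq2 0 members were called in each. The median log2 fold change of the members was 0.03 in KO, -0.02 in W422X and 0.01 in Y160C, against 0.02, 0.03 and 0.04 over all genes tested. All 3 mutants were compared with the same WG2 libraries.

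Among the recognition genes, PGRP-SA ranged in KO from 0.287 through a median of 0.736 to 1.37 CPM, in W422X from 0.400 through 0.606 to 2.14, in Y160C from 0.275 through 0.723 to 1.125 and in WG2 from 0.483 through 0.691 to 1.51 CPM. The genotypes overlapped over most of their range. Its differences had the widest intervals of all 10 members, from -0.64 to 0.57 for KO over WG2. PGRP-LC had medians of 7.93, 7.92 and 7.93 CPM in KO, W422X and Y160C, with highest values of 13.98, 14.7 and 14.7, against a median of 6.86 and a highest value of 8.60 CPM in WG2. The highest library of each mutant was a high-background library. Its log2 fold changes were 0.33 ± 0.12 in KO (adjusted p 0.313), 0.19 ± 0.12 in W422X (adjusted p 1) and 0.24 ± 0.12 in Y160C (adjusted p 0.606), and without the 9 high-background libraries that of KO was 0.09 (adjusted p 1).

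Of the negative regulators, PGRP-LB had a median of 8.11 CPM in KO (4.79 to 12.2), 6.68 in W422X (5.67 to 13.3), 7.42 in Y160C (6.72 to 13.01) and 6.24 CPM in WG2 (5.12 to 9.49). Its log2 fold changes were 0.35 ± 0.13 in KO (adjusted p 0.285), 0.16 ± 0.13 in W422X and 0.33 ± 0.12 in Y160C (adjusted p 0.606), while CG17230 around it stood at -0.29 in KO (adjusted p 0.183). None of these passed the threshold, and the ranges overlapped. The gene pirk had medians of 2.10, 1.64 and 1.99 CPM in KO, W422X and Y160C and 2.31 CPM in WG2, and its differences lay between -0.16 and -0.11 on the log2 scale with an SE of 0.22. Without the 9 libraries they were 0.046 in KO, -0.22 in W422X and -0.49 in Y160C, none of them called.

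The caspase gene Dredd was the member with the smallest difference in KO, at 10.3 ± 2.12 CPM in KO and 10.3 ± 2.20 CPM in WG2 (SD, n = 12 each), a log2 fold change of 0.01 with a 95% interval from -0.12 to 0.14. Rel averaged 43.3 ± 13.7 CPM in KO, 37.4 ± 5.07 in W422X, 36.2 ± 5.39 in Y160C and 37.4 ± 3.33 CPM in WG2. The wider spread in KO came with 60.9 and 78.7 CPM in female replicates 1 and 3 at week 3, and the log2 fold change of KO was 0.19 ± 0.08 (adjusted p 0.336), or 0.019 (adjusted p 0.946) without these 2 libraries and 0.056 (adjusted p 1) without the 9. Dif differed by -0.11, -0.07 and -0.10 in KO, W422X and Y160C, and its interval in KO ran from -0.23 to 0.004. For dl the values were 0.06, -0.13 and 0.02, and Tep2 stood at -0.05, 0.10 and 0.07.

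Sting had a median of 3.19 CPM in KO (1.82 to 31.8), 3.42 in W422X (1.40 to 8.42), 3.35 in Y160C (1.88 to 9.19) and 3.38 CPM in WG2 (1.61 to 7.51). The medians of the genotypes lay close together, while the highest KO library stood far above the highest of every other genotype. The log2 fold change of KO was 0.74 ± 0.22 (adjusted p 0.147), and those of W422X and Y160C were 0.02 ± 0.22 each, with intervals from -0.43 to 0.47 and from -0.42 to 0.47. The KO value was 0.031 (adjusted p 0.962) without KO female replicates 1 and 3 of week 3, and 0.062 (adjusted p 1) without the 9.

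At week 3, Sting was the only member called in KO (1 of 10, with 1% of all genes called higher and 1.29% called in either direction), and 0 of 10 were called in W422X (0.183%) and in Y160C (0.146%), where 2 and 3 members had a p under 0.05 before adjustment and 0 were called by DESeq2. In the KO females Sting had 31.8, 2.81 and 25.6 CPM in replicates 1 to 3, and in the KO males 8.64, 5.78 and 8.01 CPM. In the WG2 females it had 6.38, 4.23 and 3.38 CPM, and in the WG2 males 3.37, 7.51 and 4.25 CPM. Female replicates 1 and 3 of KO thus stood far above every other library, while replicate 2 was below all WG2 libraries at week 3 and the KO males overlapped with WG2. The log2 fold change was 1.34 ± 0.31 (adjusted p 0.0135), but -0.11 (adjusted p 0.852) without these 2 libraries and -0.023 (adjusted p 1) without the 9 high-background libraries, which leaves 1 library each in the KO female, KO male and Y160C female groups of week 3, assumed to vary like the other groups. Leaving out KO female replicate 1 alone (1.09, adjusted p 0.0978), KO female replicate 3 alone (1.23, adjusted p 0.061), WG2 female replicate 3 (1.27, adjusted p 0.0506) or WG2 male replicate 1 of week 3 (1.26, adjusted p 0.0522) also ended the call, as did a fit of KO and WG2 alone (1.37, adjusted p 0.0572).

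The same 2 libraries held RNA of Hml, the haemolectin gene of haemocytes (blood cells), at 5772 and 7535 CPM, against 151 CPM in replicate 2 and at most 306.5 CPM in any other library. The summed level of the 10 haemocyte markers was 6086 and 7853 CPM there, 502 CPM in replicate 2 and 300 to 891 CPM in the 46 libraries without these 2. Most of that sum was Hml itself. The other 9 markers, including NimC1, eater, He and Pxn, were within the range of the other libraries, except Sr-CI in replicate 1 (23.97 CPM, against at most 22.25). Lsp2, a larval serum protein gene of the fat body, stood at 17.7 and 36.1 CPM against at most 1.61 CPM, whereas the summed fat body markers, at 3912 and 3775 CPM, were within the range of 529 to 5184 CPM. The part of haemocyte or fat body RNA in the level of Sting was not tested.

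**Figure D3:**
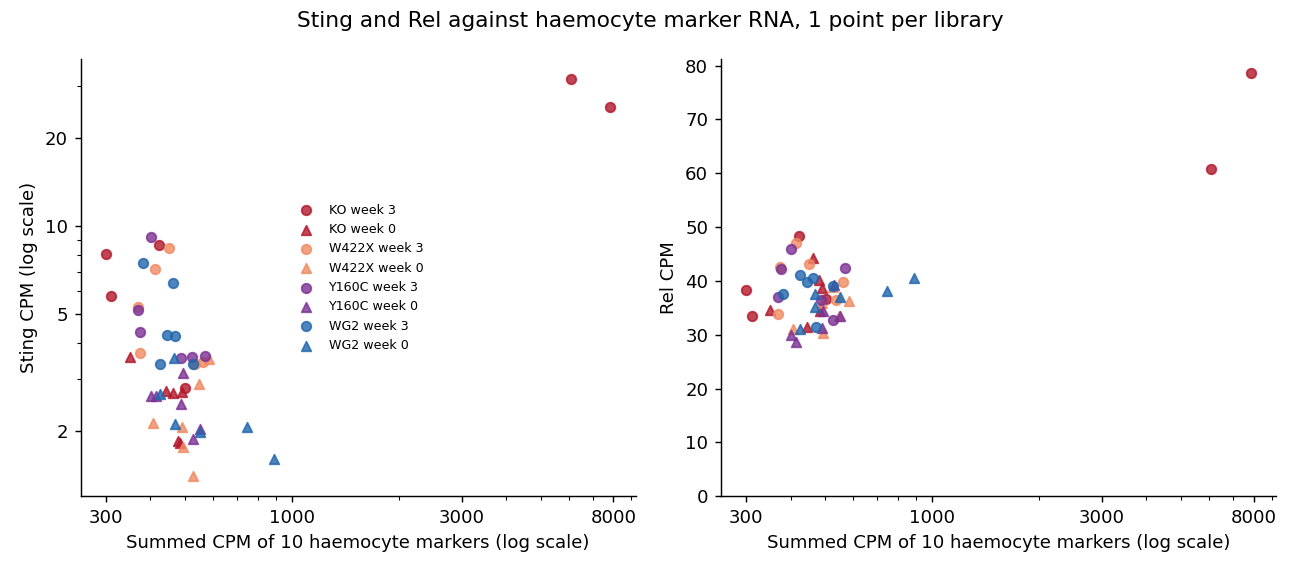
Sting (left, log axis) and Rel (right, linear axis) in CPM against the summed CPM of 10 haemocyte markers (log axis), with 1 point per library, colours by genotype, circles for week 3 and triangles for week 0. The 2 KO libraries at 6086 and 7853 CPM of haemocyte markers, most of it the single gene Hml, hold the highest Sting (31.8 and 25.6 CPM) and the highest Rel (60.9 and 78.7 CPM).

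Rel, which acts downstream of Sting, was likewise highest in these 2 libraries, at 60.9 and 78.7 CPM, with 36.6 CPM in replicate 2 and 28.7 to 48.3 CPM elsewhere, as the plot against haemocyte markers shows. At week 3 its log2 fold change in KO was 0.34 ± 0.12 (adjusted p 0.151), and it was -0.03 (adjusted p 0.925) without them. With DESeq2 Rel was called (0.40, adjusted p 0.0173). PGRP-LB stood at 0.57 ± 0.18 (adjusted p 0.109) and PGRP-LC at 0.50 ± 0.18 (adjusted p 0.152) in KO, at 0.36 and 0.39 in W422X (adjusted p 1 each), and at 0.50 and 0.58 in Y160C (adjusted p 0.605 and 0.397). Without the 9 libraries PGRP-LB stood at 0.33, 0.25 and 0.22 and PGRP-LC at 0.013, 0.17 and 0.27 in KO, W422X and Y160C, none of them called. In KO the other members lay between -0.18 (Dif) and 0.19 (dl), and none of them passed the test.

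**Figure D4:**
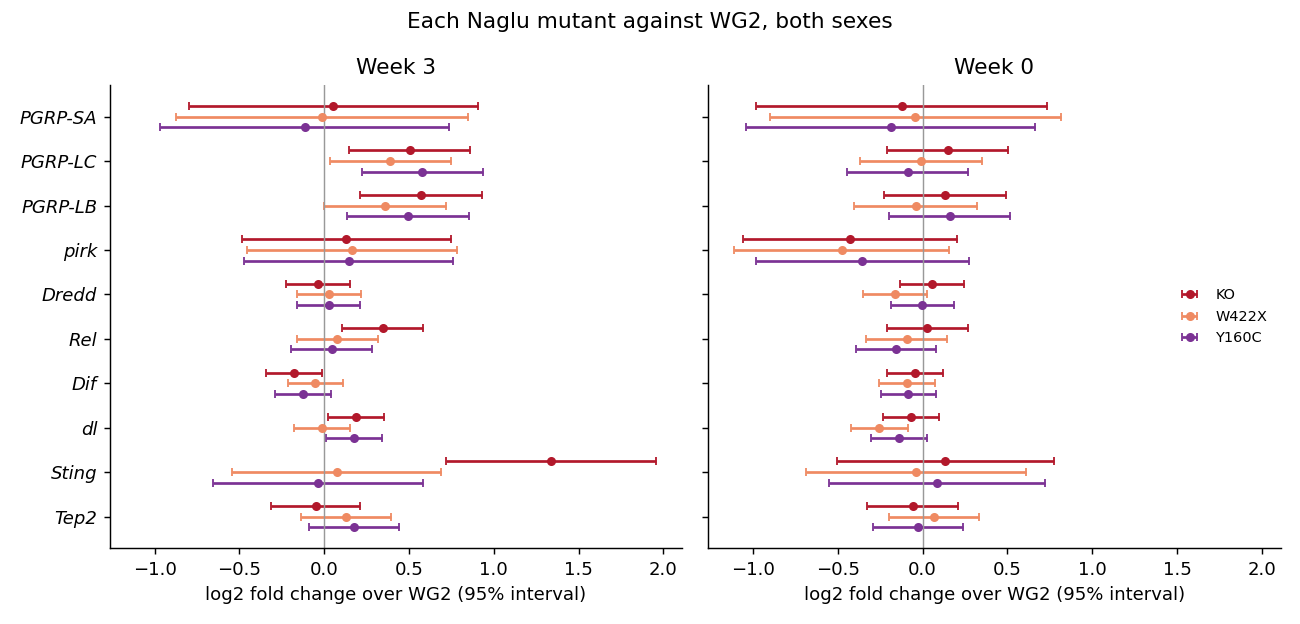
Log2 fold change of each gene in KO, W422X and Y160C over WG2 at week 3 (left) and week 0 (right), with 95% intervals, both sexes together. Sting in KO at week 3 (1.34) is the only one called, and the intervals of PGRP-SA, pirk and Sting are the widest.

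The plot of mutant differences shows that at week 0 the intervals crossed 0 for every member and mutant except dl in W422X. No member was called at week 0 in KO (0.133% of all genes called), W422X (0.171%) or Y160C (0.24%). Before adjustment 0, 1 and 0 members had a p under 0.05, and 0 were called by DESeq2. Within the sexes no member was called by edgeR in KO females (0.772%), KO males (0.158%), W422X females (0.177%), W422X males (0.202%), Y160C females (0.177%) or Y160C males (0.158%). Before adjustment 3, 2, 0, 1, 0 and 1 members in these groups had a p under 0.05. DESeq2 gave calls for 2 members in KO females and for 0 in the others.

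Whether a mutant effect depended on age or sex was tested as an interaction. No member was called for age in KO (0.215% of all genes), W422X (0%) or Y160C (0.019%), and 2, 1 and 2 had a p under 0.05 before adjustment. The largest was Sting in KO, whose log2 difference from WG2 at week 3 exceeded that at week 0 by 1.20 ± 0.44 (adjusted p 0.639). That value was called without KO female replicate 2 of week 3, the low one (1.43, adjusted p 0.0135). Without replicates 1 and 3 of that group it was -0.29 (adjusted p 0.979), and -0.17 (adjusted p 1) in the absence of the 9, so its direction turned. For sex, 0 members were called in KO (0.152%), W422X (0%) and Y160C (0.00633%), and 0 had a p under 0.05 before adjustment. DESeq2 gave 0 calls of members for all these interactions. Between mutants, 0 members were called for KO over W422X (0.747%), KO over Y160C (0.797%) and W422X over Y160C (0.443%), where 3, 2 and 1 had a p under 0.05 before adjustment and DESeq2 gave 0.

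Age was the factor that moved most members. Between week 3 and week 0, over the 4 genotypes and both sexes, 9 of 10 were called and all 9 were higher at week 3, where 26.4% of all genes were called higher and 44.5% were called in either direction. The median log2 fold change of the members was 0.36, against 0.16 over all genes. Without the 9 high-background libraries 7 of 10 were called, all higher, beside 20% of all genes called higher and 38.6% called in either direction, and the medians were 0.29 and -0.07. The 7 were Tep2, Sting, pirk, Dredd, dl, Rel and Dif.

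Sting had 2.81, 4.76 and 31.8 CPM (lowest, median and highest of 24 libraries) at week 3, against 1.40, 2.30 and 3.57 CPM at week 0. The ranges overlapped only at their ends. Its log2 fold change was 1.37 ± 0.16 (adjusted p 6.79e-09), and it was 1.01 (adjusted p 2.03e-08) without the 2 KO female libraries and 1.06 (adjusted p 1.92e-07) without the 9. Within genotypes it was higher by 2.27 ± 0.32 in KO (adjusted p 4.07e-06), by 1.19 ± 0.32 in W422X (adjusted p 0.0143) and by 1.07 ± 0.31 in WG2 (adjusted p 0.0254), and in Y160C it stood at 0.95 ± 0.31 (adjusted p 0.0521). Without the 2 KO libraries the KO value was 0.83 (adjusted p 0.0699).

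The Imd regulator pirk had 1.01, 3.21 and 5.80 CPM at week 3, against 0.821, 1.47 and 3.37 CPM at week 0. All but 1 of the week 3 libraries lay above the week 0 median, and the ranges overlapped. The log2 fold change was 0.96 ± 0.16 (adjusted p 4.8e-06), or 0.66 (adjusted p 0.000435) without the 9. Tep2 had 29.9, 46.6 and 69.8 CPM at week 3, against 22.6, 28.6 and 38.9 CPM at week 0, a log2 fold change of 0.64 ± 0.07 (adjusted p 5.06e-10). Tep2 was higher at week 3 in all 4 genotypes, by 0.58 ± 0.13 in KO, 0.64 ± 0.13 in W422X, 0.78 ± 0.13 in Y160C and 0.58 ± 0.13 in WG2 (adjusted p 0.00158, 0.00154, 0.000178 and 0.00361). Without the 2 KO female libraries the KO value was 0.38 (adjusted p 0.241) and no longer called.

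Of the NF-kappaB factors, dl rose most. In males it had 14.9, 18.7 and 24.6 CPM at week 3, against 11.7, 13.9 and 18.1 CPM at week 0, and in females 40.3, 42.6 and 47.2 CPM at week 3, against 32.3, 36.04 and 43.1 CPM at week 0. In each sex the week 3 libraries were shifted up with overlap at the ends. Over both sexes the log2 fold change was 0.34 ± 0.04 (adjusted p 1.74e-08), and it was 0.32 without the 9. It was called in KO (0.39), W422X (0.38) and Y160C (0.45) and stood at 0.14 in WG2 (adjusted p 0.371).

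Rel had 31.5, 39.8 and 78.7 CPM at week 3 and 28.7, 34.9 and 44.2 CPM at week 0, a log2 fold change of 0.24 ± 0.06 (adjusted p 0.00162) that was 0.14 (adjusted p 0.0449) without the 2 KO libraries and 0.13 (adjusted p 0.051) without WG2 female replicate 1 of week 3. Dif rose least, by 0.12 ± 0.04 (adjusted p 0.0151), with 55.9, 67.2 and 74.0 CPM at week 3 against 45.2, 61.6 and 70.8 CPM at week 0. The Dif call was present in 31 of the 48 fits that left out a single library, and its value ranged from 0.02 to 0.19 over them. It was 0.23 (adjusted p 5.47e-05) without the 9 libraries and 0.12 (adjusted p 0.0631) without the 2 KO female libraries. Dredd, the caspase, rose by 0.27 ± 0.05 (adjusted p 1.26e-05), with medians of 10.96 CPM at week 3 and 9.25 CPM at week 0.

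The age values of the receptors and PGRP-LB changed without the high-background libraries. PGRP-LC had 5.46, 8.21 and 14.7 CPM at week 3 and 5.20, 6.68 and 9.99 CPM at week 0. It was higher by 0.37 ± 0.09 (adjusted p 0.000979), but by 0.17 (adjusted p 0.119) without the 9, when its highest week 3 value was 11.01 CPM. PGRP-LB had 5.43, 7.47 and 13.3 CPM at week 3 and 4.79, 6.83 and 9.49 CPM at week 0, with a log2 fold change of 0.23 ± 0.09 (adjusted p 0.0377), and its value without the 9 was 0.01 (adjusted p 0.938), while 24 of the 48 fits that left out a single library gave the call. PGRP-SA had 0.387, 0.791 and 2.14 CPM at week 3 and 0.275, 0.596 and 1.32 CPM at week 0. Its 0.47 ± 0.21 (adjusted p 0.0648) did not pass the test, and without the 9 it was 0.06 (adjusted p 0.847).

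**Figure D5:**
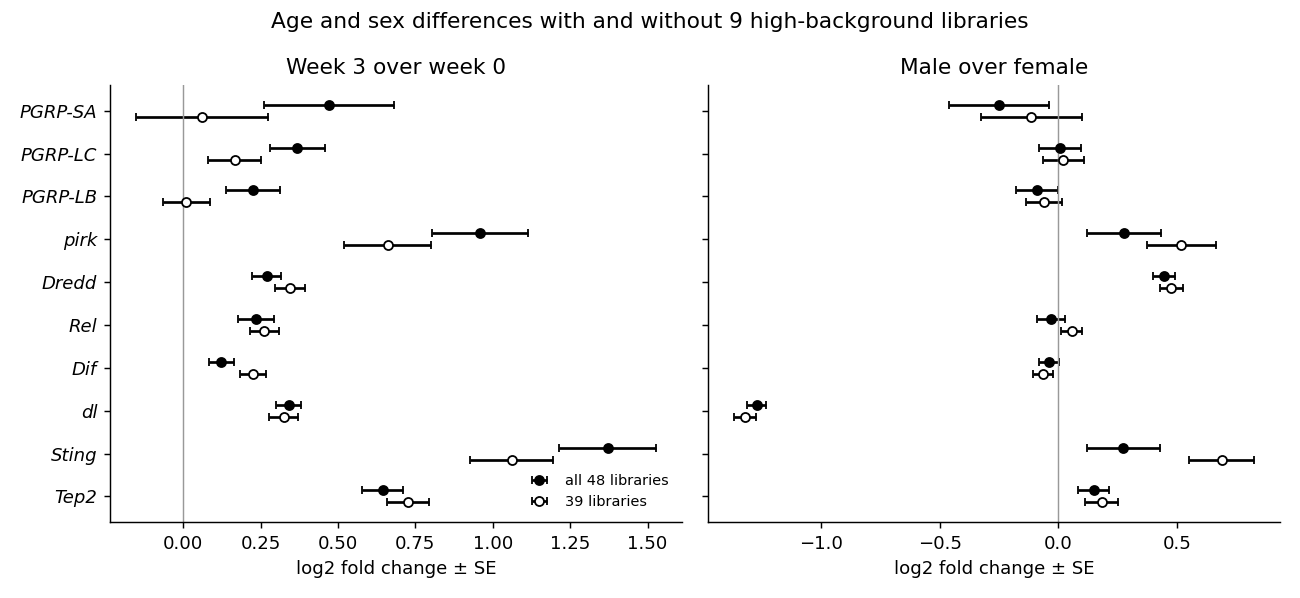
Log2 fold change ± SE of each gene for week 3 over week 0 (left) and male over female (right), from all 48 libraries (filled) and from the 39 libraries left without the high-background ones (open). With 39 libraries the age values of PGRP-SA, PGRP-LC and PGRP-LB lie at 0.06, 0.17 and 0.01, and dl in males lies at -1.32.

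The plot of age and sex differences shows Sting, pirk and Tep2 as the members furthest to the right for age in both sets of libraries. Within single genotypes, 5 members were called in KO (6.38% of all genes called higher, 17.9% in either direction), 5 in W422X (4.26% and 7.24%), 4 in Y160C (3.26% and 7.55%) and 2 in WG2 (3.51% and 8.72%). All these calls were higher at week 3, and those in WG2 were Tep2 and Sting. With RLE size factors the calls over all genes in KO were 1436 higher and 1536 lower, against 1009 and 1821 with TMM, and in W422X 889 higher and 944 lower, against 673 and 472. Within males 7 members were called higher (11.5% of all genes higher, 18.6% in either direction), and within females 7 (39.8% and 62.4%). Without the 9 libraries 7 members were called in males (20.7% of all genes higher, 47.3% in either direction) and 5 in females (7.66% and 14%), so that the sex with the larger share of all genes called turned. In females the calls of pirk (0.26, adjusted p 0.518), PGRP-LC (0.25, adjusted p 0.227) and Rel were then lost and that of Dif (0.19, adjusted p 0.0332) was gained. Without the 9 libraries, of which WG2 held 1, Dif stood at 0.27 and Dredd at 0.33 in WG2, and pirk at 1.33 and Tep2 at 0.58 in KO. In W422X Dif then stood at 0.21 and Rel at 0.25. In Y160C Sting stood at 1.03, Rel at 0.41, Dredd at 0.32, Dif at 0.26, PGRP-LC at 0.43 and pirk at 0.077. The share of all genes called within each genotype also moved in this fit.

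Marker RNA of several cell types moved with age, beside 26.4% of all genes called higher at week 3 and 18.1% lower. All 6 neuronal markers were lower at week 3, with summed levels of 8502 to 13410 CPM at week 3 and 10690 to 17830 CPM at week 0. Of 8 glial markers 5 were lower and 1 was higher, at summed levels of 1479 to 3599 CPM and 2413 to 6709 CPM. Of 9 fat body markers 7 were higher, at 828.5 to 3912 CPM at week 3 and 529 to 5184 CPM at week 0, and of 10 haemocyte markers 5 were higher and 2 lower, at 300 to 7853 CPM and 350.5 to 891 CPM. Lsp2 was at 0 in 12 libraries, and Lsp2, to, fit and Obp99b of the fat body list had medians under 0.5 CPM outside KO female replicates 1 and 3 of week 3. The median haemocyte sum was 447.9 CPM at week 3 and 489.3 CPM at week 0. Only KO female replicates 1 and 3 of week 3 had a haemocyte sum above 891.2 CPM. The markers were not compared without the high-background libraries, all of week 3. Their part in the age differences of the immune genes was not tested.

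Sex separated a single member completely. The gene dl had 11.7, 16.6 and 24.6 CPM (lowest, median and highest of 24) in males, against 32.3, 40.8 and 47.2 CPM in females. Every male library was below every female library. The log2 fold change of males over females was -1.27 ± 0.04 (adjusted p 1.74e-24), the third smallest p of all 15807 genes, though by size it ranked 151. The difference was present in each genotype, at -1.15 ± 0.08 in KO, -1.47 ± 0.08 in W422X, -1.20 ± 0.08 in Y160C and -1.27 ± 0.08 in WG2, and at both ages, at -1.16 ± 0.06 at week 3 and -1.38 ± 0.06 at week 0. Leaving out any library kept it between -1.32 and -1.24.

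Dorsal, the protein of dl, is known for patterning the embryo from RNA laid down in the egg as well as for Toll immunity. Ovary and germ line genes were examined beside it, chosen after the values of dl were seen: the summed level of osk, bcd, vas, otu and aub was 5.83 to 18.5 CPM in males, with a median of 7.65, and 4.51 to 27.1 CPM in females, with a median of 6.68. None of these 5 genes was called between the sexes. Of them osk, bcd and vas were near the floor, at medians of 0.465, 0.625 and 0.680 CPM outside KO female replicates 1 and 3 of week 3. The part of ovary or germ line RNA in the level of dl was not tested. Dif, the neighbour of dl on 2L and its partner in Toll signalling, had 45.2, 61.9 and 74.0 CPM in males and 53.2, 64.8 and 73.9 CPM in females, and its log2 fold change was -0.04 ± 0.04 (adjusted p 0.679) with an interval from -0.12 to 0.04. Of the genes on 2L, 2.34% were called higher in females, and their median was -0.03.

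Dredd was higher in males, with 8.93, 11.2 and 15.3 CPM in males against 6.85, 8.51 and 11.3 CPM in females. The upper females overlapped with the lower males. Its log2 fold change was 0.45 ± 0.05 (adjusted p 2.45e-09), 0.47 in KO, 0.54 in W422X, 0.35 in Y160C and 0.43 in WG2, each called, though in Y160C the call was lost in 3 alternatives and in KO without the 2 KO female libraries (0.39, adjusted p 0.271). With dl and Dredd, 2 members were called in each genotype, in KO (2.13% of all genes), W422X (1.57%), Y160C (1.25%) and WG2 (0.93%). The same 2 were called at week 0 (4.53%), and at week 3 Tep2 was also called (3 of 10, 23.4% of all genes), higher in males by 0.36 (adjusted p 0.00908). Dredd lies on X, where 9.74% of 2392 genes were called higher in males and 17.1% higher in females, and the median was -0.13. Mybbp1A, which overlaps its end, was also higher in males, by 0.39 (adjusted p 7.99e-08). With dl and Dredd, 2 of 10 members were called between the sexes, where 10.1% of all genes were called (6.04% higher and 4.1% lower in males).

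The other 8 members did not pass the test between the sexes with all libraries. Sting had 1.98, 3.56 and 9.19 CPM in males and 1.40, 2.76 and 31.8 CPM in females, a log2 fold change of 0.27 ± 0.15 (adjusted p 0.332). Its highest female values were those of the 2 KO libraries, and without them Sting was called higher in males at 0.62 (adjusted p 0.000408), or at 0.69 (adjusted p 0.000713) without the 9. pirk stood at 0.28 (adjusted p 0.322) and was called higher in males without the 9, at 0.52 (adjusted p 0.0155). Tep2 stood at 0.15 (adjusted p 0.17), PGRP-SA at -0.25, PGRP-LB at -0.09, Rel at -0.03 and PGRP-LC at 0.01.

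Marker RNA also differed between the sexes, beside 6.04% of all genes called higher in males and 4.1% lower. These markers too were compared with all libraries only. Of 10 haemocyte markers 7 were lower in males, at summed levels of 300 to 584 CPM in males and 369 to 7853 CPM in females, and of 9 fat body markers 4 were lower and 1 higher, at 529 to 1403 CPM in males and 1035 to 5184 CPM in females. The median haemocyte sum was 423.6 CPM in males and 513.4 CPM in females. The highest female sums were those of KO replicates 1 and 3 of week 3. Of 8 glial markers 5 were higher in males, at 2287 to 6709 CPM in males and 1479 to 4409 CPM in females. Their part in the levels of dl, Dredd or Sting was not tested.

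The age difference of a single member, Tep2, differed between the sexes (1 of 10, where 7.95% of all genes were called higher and 23.4% in either direction). The calls over all genes were 1257 higher and 2436 lower, and with RLE size factors 285 and 2022. In males Tep2 had 37.97, 52.5 and 69.8 CPM at week 3 and 24, 28.6 and 36.2 CPM at week 0, with no overlap between ages. In females it had 29.9, 42.2 and 50.1 CPM at week 3 and 22.6, 30.1 and 38.9 CPM at week 0, and the ages overlapped. The rise was 0.85 ± 0.09 in males and 0.44 ± 0.09 in females, a difference of 0.41 ± 0.13 (adjusted p 0.0374). It was called in 15 of the 48 fits without a single library, and it was not called without the 2 KO female libraries (0.49, adjusted p 0.118) or without the 9 (0.42, adjusted p 0.137). The age difference of dl was larger in males by 0.22 ± 0.08 (adjusted p 0.0506), which did not pass the test, and without the 9 it was 0.053 (adjusted p 0.85).

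The genes whose levels across the 16 group means were most like each member are given as a description, over 11225 genes with a mean of at least 1 CPM. For dl they were CG9743 (Pearson r 0.984) and lncRNA:CR32636 (0.977), and for Dredd Muc14A (0.958) and GstD9 (0.957). For Sting they were lncRNA:CR32368 (0.969) and ana3 (0.936). LManI had the highest r with both pirk (0.951) and Tep2 (0.951), followed by Irc (0.945) for pirk and shg (0.945) for Tep2. Rel was most like Arpc2 (0.944) and fat-spondin (0.906), and Dif most like bigmax (0.929) and gbb (0.911). PGRP-LB was most like asRNA:CR45889 (0.920) and Cad96Cb (0.888), PGRP-LC most like Cyp6t3 (0.912) and CG31525 (0.890), and PGRP-SA most like Nepl9 (0.906) and Nepl12 (0.895). The points share their libraries, and the age and sex differences enter every one of these values. The group means include the 9 high-background libraries, all of week 3, and likeness was not computed without them.

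Other genes of these and related immune pathways were counted for context. In the mutants over both sexes and ages, CYLD, a deubiquitinase gene of the Imd list, was the only one called in the Toll, Toll receptor, Imd, peptidoglycan recognition, Sting, thioester, JAK/STAT and antimicrobial effector lists. Of all genes, 0.747% were called in KO, 0.373% in W422X and 0.31% in Y160C. The number of genes in each list is given with the age values below. It had 38.2 ± 4.02 CPM in KO and 45.4 ± 4.85 CPM in WG2 (SD, n = 12 each), a log2 fold change of -0.25 ± 0.06 (adjusted p 0.0395), and it was -0.22 (adjusted p 0.0321) without the 9 libraries.

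With age the 19 other Toll pathway genes had 9 called higher and 3 lower at week 3 (median 0.26, against 0.16 over all genes), and 5 and 2 without the 9 libraries (0.13 against -0.07). They included the serpin gene Spn88Ea (0.42), the adaptor gene Myd88 (0.23) and Pli, the Pellino gene (-0.23). Of 22 other Imd genes 4 were higher and 6 lower (median -0.02), or 8 and 4 without the 9 (0.06), among them Tab2 of the TAK1 complex (0.30), the ubiquitin ligase gene dnr1 (-0.33) and the ubiquitin conjugating enzyme gene ben (-0.28). Of 10 Toll family receptors and Spatzle ligands 3 were higher and 2 lower (median 0.67), or 1 and 6 without the 9 (-0.76). Tollo was higher (0.33), and Toll-6 (-0.26) and Toll-7 (-0.29) were lower. Beside these list counts, 26.4% of all genes were called higher at week 3 and 18.1% lower with all libraries.

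Of 10 other peptidoglycan recognition genes 3 were higher and 1 lower with age (median 0.43), or 1 and 1 without the 9 (-0.14). PGRP-SD (0.60) and PGRP-LA (0.21) were higher, and PGRP-LE, an intracellular Imd receptor gene, was lower (-0.23). PGRP-SD (adjusted p 0.118) and PGRP-LE (adjusted p 0.0604) lost their calls without the 9. Of 7 other Sting pathway genes 4 were higher and 1 lower (median 0.74), or 2 and 1 without the 9 (0.11). Srg3, a Sting-regulated gene, had 1.80 ± 2.22 CPM at week 3 and 0.332 ± 0.256 CPM at week 0 (SD, n = 24 each), a log2 fold change of 2.38 ± 0.27, or 1.74 (adjusted p 7.6e-06) without the 9. The virus-induced gene vir-1 rose by 0.71 ± 0.12, and cGlr2, a cyclic dinucleotide synthase gene upstream of Sting, fell by 0.36. The share of all genes with all libraries was 26.4% called higher with age and 18.1% called lower.

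Of 5 other thioester protein genes 4 were higher and 0 lower with age (median 0.66), or 2 and 2 without the 9 (-0.02). Tep1 stood at 1.17 ± 0.30, or -0.02 (adjusted p 0.971) without the 9, while Mcr (0.25) and Tep4 (0.66) were called in both. Of 10 JAK/STAT genes 0 were higher and 1 lower, the transcription factor gene Stat92E (-0.20), which was not called without the 9 (adjusted p 0.107), when 2 others were called higher and 3 lower. Of 27 antimicrobial effectors, the outputs of Toll and Imd, 4 were higher and 0 lower (median 0.37), or 1 and 2 of 24 without the 9 (-0.02). Their summed level was 17.02 to 89.9 CPM at week 3, with a median of 37.6, and 11.7 to 335.6 CPM at week 0, with a median of 22. Here too 26.4% of all genes were called higher with age and 18.1% lower with all libraries.

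Between the sexes few of these genes were called, where 10.1% of all genes were called. Males were lower for psh, a protease gene of Toll activation (-0.87 ± 0.25, adjusted p 0.0178), and for et, a JAK/STAT receptor gene (-0.64, adjusted p 0.0253), which was not called without the 9 libraries (adjusted p 0.497). They were higher for cGlr2 (0.59 ± 0.08, adjusted p 2.05e-06), with 6.585 ± 1.28 CPM in males and 4.37 ± 1.06 CPM in females (SD, n = 24 each), for the receptor gene dome (0.30, adjusted p 0.000523) and for PGRP-LA (0.24, adjusted p 0.00126). Of the antimicrobial effectors 1 was higher and 0 were lower in males.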

How the data were processed

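The deposited values are raw counts of reads per gene, as whole numbers with 1 column for each library, beside gene lengths. Per the submitters' processing notes, Subread was used (no version). Aligner, genome build, annotation, strand setting and read filters are not given in the sources used here. Per the labels' protocols, each sample held 20 brains and libraries were made with a Tecan Genomics kit, with ribosomal RNA depletion. No column belonged to other samples (0 columns).

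Symbols and positions were matched by gene identifier to the BDGP6.54 annotation (17288 of 17490 identifiers). The analysis used edgeR 4.0.16 and limma 3.58.1 under R 4.3.3. The edgeR filter filterByExpr (count 10 and total 15 as minima, 16 groups) left 15807 genes and removed 1683. All 48 libraries entered 1 robust quasi-likelihood model with TMM factors and 32 residual degrees of freedom, and contrasts of group means were tested with Benjamini-Hochberg adjustment over all genes tested. A gene was called at an adjusted p under 0.05, and adjusted p-values are from edgeR unless DESeq2 (1.42.0) is named. Errors of fold changes are SE. CPM use the scaled library sizes, and CPM per kilobase the deposited lengths. The model step was checked on simulated data.

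The members and gene lists were chosen with earlier results of these data known. Named genes are the members, Naglu, up to 3 called genes per pathway list and contrast with the smallest p, and the 2 genes most like each member. The germ line list, the haemocyte and fat body markers named singly, and the set of 9 high-background libraries (over 0.33% of counts in genes of median under 0.5 CPM) were chosen after seeing the data. Alternatives were other size factors, no filter, a replicate block, only the compared genotypes, DESeq2, and leaving out libraries. Replicates differed beyond sampling noise (chi-square per degree of freedom at least 4.01 in 48 pairs). The depth per library limits PGRP-SA and pirk most.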

Additional observations from a re-analysis of the deposited data

Results flagged for a closer look

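The rise of Tep2 with age differed between the sexes by a test of the difference itself: it was larger in males by 0.41 on the log2 scale (edgeR adjusted p 0.0374). This was 1 of 10 members, where 7.95% of all genes were called higher and 23.4% in either direction. The call was not kept in most fits that left out a single library. Nor was it kept with RLE size factors or without KO female replicates 1 and 3 of week 3. Males at week 3 had a median of 52.5 CPM and males at week 0 of 28.6 CPM, while females had 42.2 CPM at week 3 and 30.1 CPM at week 0. Of the 24 libraries at week 3, 9 were of high background, 3 of them male and 6 female, and their part in this difference was not tested beyond the value without them, 0.42 (adjusted p 0.137).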

How the results depend on the processing

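The calls of dl and Dredd between the sexes and of Sting, pirk, Tep2, dl and Dredd between the ages, over all genotypes, were kept in every alternative run. Counts of members called that moved by over 1.5 times were as follows. KO over WG2 at week 3 (1) was 2 with RLE size factors and with DESeq2, and 0 without the 2 KO female libraries, without the 9 high-background libraries and with only the compared genotypes; Sting was then at -0.11 and -0.023 in the first pair of these. KO in females (0) was 2 with DESeq2. Age in KO (5) was 1 without the 2 libraries and 2 without the 9, age in Y160C (4) was 7 with DESeq2, and age in WG2 (2) was 4 with RLE, with DESeq2 and without the 9. Sex (2) was 4 without the 9, sex at week 3 (3) was 5 without the 9, and sex in KO (2) was 1 without the 2 libraries. Sex in Y160C (2) was 1 with no filter, with the replicate block and without the 2 libraries. Age by sex (1) was 0 with RLE and without either set. Smaller moves without the 2 libraries were age from 9 to 7, age in females from 7 to 6, age in Y160C from 4 to 5, sex from 2 to 3 and sex at week 3 from 3 to 4; without the 9 they were age from 9 to 7, age in females from 7 to 5, age in W422X from 5 to 7, age in Y160C from 4 to 6 and sex at week 0 from 2 to 3 (Sting added). The share of all genes called also moved, and the cause was not tested. For KO at week 3 it was 1.29%, against 1.41% with RLE, 3.24% with DESeq2 and 2.01% with only the compared genotypes. KO in females had 0.772%, against 1.27% with DESeq2. Age in Y160C had 7.55%, against 13.6% with DESeq2. Age in WG2 had 8.72%, against 12.7% with RLE and 14.8% with DESeq2. Sex in Y160C had 1.25%, against 0.999% with no filter and 1.12% with the replicate block. Without either set of libraries the share moved for age, also within genotypes, for sex, age by sex and KO at week 3. With 1 library left out at a time, counts ranged from 6 to 10 for age, 0 to 3 for age by sex, 2 to 3 for sex, 0 to 4 for KO at week 3, 0 to 2 for KO over WG2, 0 to 1 for KO by age, 0 to 3 for KO over W422X and 0 to 2 for KO over Y160C; the other 21 contrasts were not run this way. Without KO female week 3 replicate 2, Sting and Rel were called in KO over WG2 (0.91 and 0.29), and without WG2 male week 3 replicate 2 Sting was (0.89, adjusted p 0.0473).

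Deviations of libraries with the same replicate number in the sample titles had a median r of -0.02 (35.8% of 360 pairs over 0.1). For other numbers it was 0.01 (38.8%). In some groups, such as WG2 females of week 3, the title numbers differ from those in the names of the count columns. Pairing by the column names was not tested. With the replicate block, age gave 9 members, sex 2, KO at week 3 gave 1 and each mutant over WG2 gave 0. RLE size factors moved the all-gene median of age by sex to -0.11, against 0 with TMM. Leaving out the 9 libraries moved that of age to -0.07, against 0.16. Genes called in all for KO over WG2 at week 3 numbered 204, against 512 with DESeq2, 309 with only the compared genotypes, 9 without the 2 KO libraries and 14 without the 9; for age by sex they numbered 3693, against 2307 with RLE, 1950 with no filter, 11 and 14.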

Other observations

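Mtk, the antimicrobial metchnikowin gene, is named here because of its values, which were 14.6 and 14.4 CPM in KO female week 3 replicates 1 and 3, 0.905 CPM in replicate 2 and up to 29.3 CPM in the other libraries. The summed antimicrobial effectors of these libraries were 52.1, 60.3 and 17.02 CPM, within the range of the rest. The highest sum of all, 335.6 CPM, was in a male library of week 0.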
